A study of Mus musculus with 5 samples.

Results

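Spleens that lacked Sirt6 and carried 1 intact copy of Rela were compared with wild-type spleen on 3 of the 5 arrays of the series. These arrays were chosen by their sample labels, and no measured value entered the choice. Of 14654 genes named on the array, 9121 had a value on all 3 of these arrays, 2248 on 1 or 2 of them and 3285 on none. The comparison was made over 9000 genes, those measured on all 5 arrays of the series.

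The mutant groups were 3 spleens of Sirt6-/- RelA+/- mice, called here Sirt6 KO Rela het 1, 2 and 3, and 2 spleens of Sirt6-/- mice that carry no Rela label, called Sirt6 KO 1 and 2. Each was set on a 2-colour array against RNA of a wild-type spleen pool, the reference of every array, with the mutant in Cy5, the pool in Cy3 and 15 ug of amplified RNA per dye. A value is read here as a log2 ratio of mutant spleen over pool, so that 1 would stand for a doubling and -1 for a halving. The base was inferred from the range of the values and the direction from the dyes. The labels give no age, sex, strain, litter or number of pooled mice. Both mutant groups lack Sirt6, and spleens heterozygous for Rela with intact Sirt6 were not analysed here, so the 3 arrays measure both alleles at once. No array of wild-type spleen against the pool was analysed here. The pool is thus 1 control sample, the spread between wild-type mice is left out of every test, and a dye bias stays in. The labels do not say whether the spleens came from separate litters or days, so each p-value reflects no more than the variation seen among the arrays at hand.

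Sirt6 is a nuclear enzyme that removes acetyl groups from histone tails, and mice without it waste, lose lymphocytes and die young. RelA is the transactivating subunit of the most common NF-kB dimer. Sirt6 has been described as a corepressor at promoters bound by RelA, and a lower Rela dose in animals without Sirt6 bears on that relation. The spleen filters blood through red pulp macrophages, houses B cells and T cells in its white pulp, and in rodents also makes red cells and platelets. Its frame is a capsule of mesothelium and smooth muscle with collagen trabeculae.

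The targeted genes could be checked only in part. Of the 2 Sirt6 probes, 1 gave a single value, -4.31 on Sirt6 KO Rela het 2, and the rest were blank. Rela had log2 ratios of 1.15, -0.08 and -0.20 in the Sirt6 KO Rela het spleens, against 0.48 and 1.08 in the Sirt6 KO spleens. Its mean over the 3 spleens of 0.29 ± 0.36 (limma's moderated SE, with the spread estimated over all 5 arrays) had an adjusted p of 0.708. Thus 1 of the 3 heterozygous spleens lay above the pool in Rela signal, and the groups overlapped. A null or heterozygous allele can still give RNA that a probe detects. Ratios show a difference from the pool and not a level, so the tissue was checked only by whether markers were measured. On all 3 arrays a value was given for 4 of 6 B cell markers, 5 of 6 T cell markers, 5 of 5 natural killer cell markers, 5 of 6 red pulp macrophage markers and 5 of 6 erythroid markers.

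The 3 Sirt6 KO Rela het arrays differed widely among themselves. The SD of the gene values was 1.29, 0.756 and 0.967 on arrays 1, 2 and 3, and 40.7%, 12.3% and 21.9% of genes lay more than 1 from 0. Across the 9000 genes the Pearson correlation was 0.335 between arrays 1 and 2, 0.214 between 1 and 3, and -0.0062 between 2 and 3. With Sirt6 KO 1 and 2 it was 0.393 and 0.588 for array 1, and 0.460 and 0.376 for array 2. For array 3 it was -0.156 and -0.0165, and between the 2 Sirt6 KO arrays 0.823. Arrays 1 and 2 thus each correlated more with both Sirt6 KO arrays than with each other. Genes are not independent replicates, and all arrays share the pool, so these are descriptions. All 3 arrays were above 0 for 16.5% of genes and below 0 for 15.1%. A mean over the 3 spleens can therefore hide opposite values, and values are given below for each spleen in the order 1, 2 and 3.

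With limma's moderated test over all genes and Benjamini-Hochberg adjustment, 29 genes differed from the pool, which is 0.322% of those tested. Of these, 13 rose (0.144%) and 16 fell (0.178%). All 29 had the same adjusted p of 0.0485, just inside the threshold of 0.05, and the calls were fragile. The test takes its spread from all 5 arrays, the Sirt6 KO arrays included, and a fit to the 3 Sirt6 KO Rela het arrays alone gave 0 calls. Leaving out Sirt6 KO Rela het 1 or 3, or either Sirt6 KO array, gave 0 calls, and leaving out Sirt6 KO Rela het 2 gave 3, of which 2 were among the 29. The direction of all 29 was the same in each of these fits. It could not have changed, since all 3 Sirt6 KO Rela het values of each gene lay on 1 side of 0. At an unadjusted p under 0.05, 455 genes were higher (5.06%) and 720 lower (8.00%). The difference between the Sirt6 KO Rela het and Sirt6 KO means was called for 0 genes (0%), with 313 genes higher (3.48%) and 481 lower (5.34%) at an unadjusted p under 0.05 and a smallest adjusted p of 0.204.

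Genes of the translation machinery made up 8 of the 13 that rose. They were the ribosomal protein genes Rpl41, Rps28, Rps29, Rps6, Rps14 and Rpl27, the elongation factor Eef1a1, which brings aminoacyl-tRNA to the ribosome, and Tpt1, a growth-related protein grouped with the translation factors. Rps6, the small-subunit protein phosphorylated downstream of mTOR, had log2 ratios of 2.46, 2.13 and 1.96 in the Sirt6 KO Rela het spleens, against 1.45 and 1.13 in the Sirt6 KO spleens, with a mean of 2.18 ± 0.27. Rpl41 had 2.11, 2.31 and 2.70 in the Sirt6 KO Rela het spleens, against 1.34 and 0.90 in the Sirt6 KO spleens, with a mean of 2.37 ± 0.28. The 3 spleens lay close together and above both Sirt6 KO spleens for both genes. Rps28 had 2.72, 2.17 and 2.10 in the Sirt6 KO Rela het spleens, against 1.53 and 2.30 in the Sirt6 KO spleens, where the groups overlapped. Eef1a1 had 1.94, 2.10 and 1.88 in the Sirt6 KO Rela het spleens, against 1.67 and 1.35 in the Sirt6 KO spleens. The difference from Sirt6 KO was not called for any of the 8 (adjusted p of 0.472 for Rpl41 and 0.606 for Rps6).

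Over the whole list, 60 of 66 tested ribosomal protein genes had a mean above 0, against 48.8% of all genes, and 46 (69.7%) were above 0 in all 3 Sirt6 KO Rela het spleens, against 16.5% of all genes. The list median was 1.04, against -0.02 over all genes. By spleen it was 0.75, 1.49 and 1.08 in the Sirt6 KO Rela het group, against 0.89 and 0.58 in the Sirt6 KO group, so every mutant spleen was above the pool. The 40 members past an unadjusted p of 0.05 were all higher, against 5.06% of all genes. The widest spread was that of Rpl7a, with -1.49, 1.48 and 0.57 in the 3 spleens, and Rpl15, with -0.68, 1.92 and 1.04. Among 32 translation factors the median was 0.17 and 12 were above 0 in all 3 spleens. Besides Tpt1 and Eef1a1, the elongation factor subunits Eef1b2 (1.54, 1.52 and 1.72; adjusted p 0.0796) and Eef1g (0.84, 1.36 and 1.19; adjusted p 0.209) had positive values in every spleen without being called. Eif1ax, an initiation factor that scans for the start codon, had -2.17, -0.23 and 0.19. For mitochondrial ribosomal proteins the median over 68 genes was -0.10, with 14 above 0 and 17 below 0 in all 3 spleens, and it was 0.11, -0.18 and -0.29 without spleen 1, 2 or 3. Ribosomal protein genes have many near-identical processed copies in the genome, and the probes may read more than 1 of them.

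Vertebrate ribosomal protein and elongation factor messages are known for a tract of C and T at their very start, through which mTOR controls their translation. The start regions of 5 called translation genes are shown so that this feature, and its absence, can be seen beside the values, with Ogn, the gene that fell furthest, for contrast. Each window covers 40 bases before the annotated start and 15 from it on, on the gene's strand, from RefSeq on GRCm38.p6. Capitals mark the unbroken run of C and T that holds the annotated start, and a window without capitals has none.
Rps6, chr4:86857353-86857407, minus strand: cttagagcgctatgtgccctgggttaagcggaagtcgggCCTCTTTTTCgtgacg
Eef1a1, chr9:78481710-78481764, minus strand: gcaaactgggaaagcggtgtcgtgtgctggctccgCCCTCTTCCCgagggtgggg
Rps28, chr17:33824548-33824602, minus strand: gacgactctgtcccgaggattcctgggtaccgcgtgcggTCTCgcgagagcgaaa
Rpl27, chr11:101442205-101442259, plus strand: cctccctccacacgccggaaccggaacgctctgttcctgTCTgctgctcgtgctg
Rpl41, chr10:128549154-128549208, minus strand: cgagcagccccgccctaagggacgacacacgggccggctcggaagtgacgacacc
Ogn, chr13:49607975-49608029, plus strand: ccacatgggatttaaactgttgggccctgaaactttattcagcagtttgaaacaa

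Rps6 and Eef1a1 each held a run of 10 letters, Rps28 1 of 4, Rpl27 1 of 3, and Rpl41 and Ogn none over the annotated start. Tpt1, whose window is not printed, held none either. A run of at least 5 letters of C or T over the annotated start, read on the gene's strand only, was held by 20 of the 54 tested ribosomal protein genes with a window (37.0%). The same held for 4 of 24 translation factors (16.7%), 3 of 61 mitochondrial ribosomal protein genes (4.92%) and 842 of all 7387 tested genes with a window (11.4%). Among the called genes with a window it was held by 2 of 9 that rose and 0 of 12 that fell. An annotated start can lie some bases away from the start in use, so a window without a run says only that these letters are not there.

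Uty and Kdm5d, both on the Y chromosome, were also among the genes that rose. Kdm5d had 2.16, 2.07 and 2.34 in the Sirt6 KO Rela het spleens, against 2.13 and 2.19 in the Sirt6 KO spleens, and Eif2s3y, not called (adjusted p 0.0796), had 2.06, 1.45 and 2.02 in the Sirt6 KO Rela het spleens, against 2.13 and 2.78 in the Sirt6 KO spleens. All 5 mutant spleens were thus above the pool in Y-linked signal by a like amount, and the sex of the pooled mice and the genotype cannot be told apart in any comparison with the pool. The other 3 genes that rose were St18, Mmp3 and Hspa8. St18, a zinc finger transcription factor, had 5.99, 3.27 and 3.83 in the Sirt6 KO Rela het spleens, against 2.50 and 3.23 in the Sirt6 KO spleens, and its mean of 4.36 ± 0.53 was the highest of the 29. Mmp3, a matrix metalloproteinase and a known NF-kB target, had 2.03, 3.64 and 3.88 in the Sirt6 KO Rela het spleens, against 1.40 and 1.23 in the Sirt6 KO spleens, with a mean of 3.19 ± 0.41. Hspa8, the constitutive cytosolic chaperone of the Hsp70 family, had 3.04, 1.98 and 2.43 in the Sirt6 KO Rela het spleens, against 0.62 and 0.62 in the Sirt6 KO spleens, with a mean of 2.48 ± 0.30. Its 3 probes each gave positive values on all arrays. For all 13 genes that rose, both Sirt6 KO spleens lay above 0 too. For 10 of them all 3 Sirt6 KO Rela het spleens lay above both Sirt6 KO spleens, which was so for 14.4% of all genes. The 13 were picked for high values in the same 3 spleens, which by itself favours this order, so the shares are not alike.

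**Figure D1:**
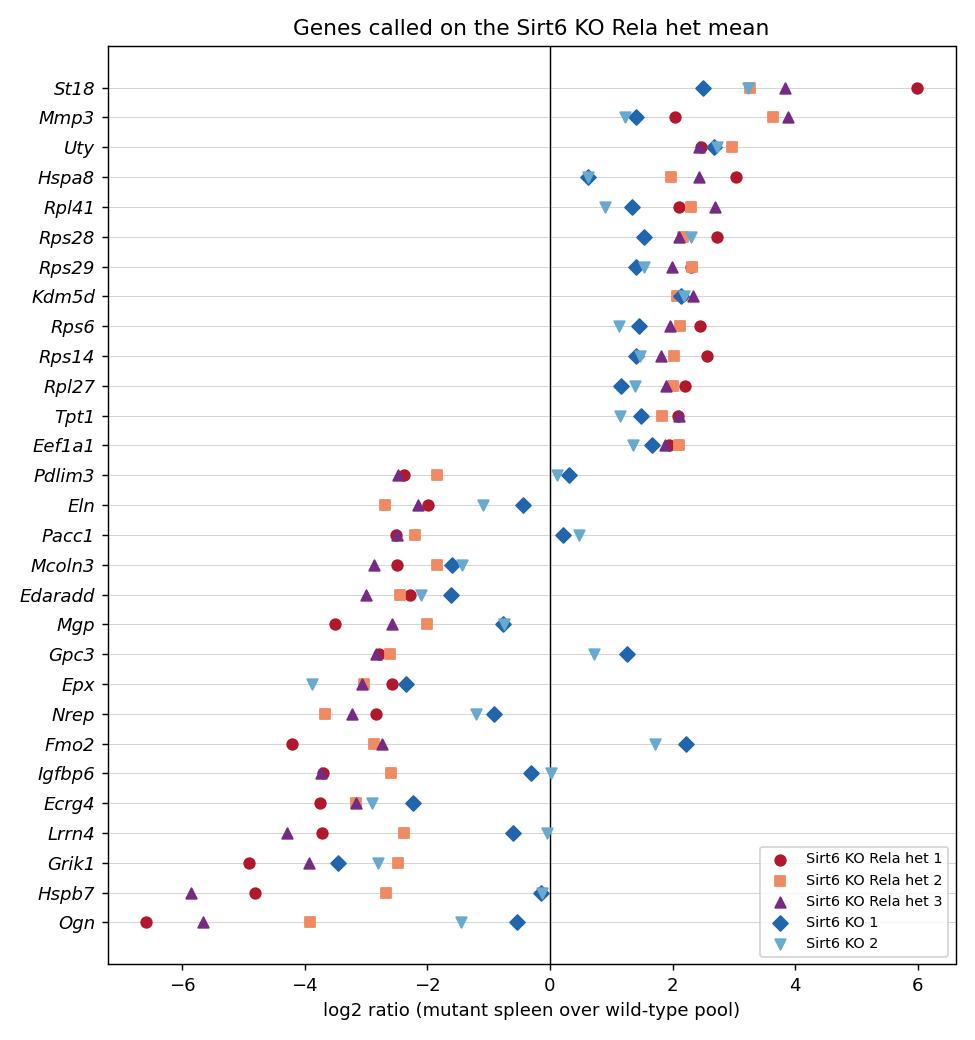
Log2 ratio of mutant spleen over wild-type pool for the 29 genes called on the mean of the 3 Sirt6 KO Rela het spleens, 1 line per gene and 1 point per array. The 3 Sirt6 KO Rela het points lie on 1 side of 0 for each gene, while the Sirt6 KO points of Fmo2, Gpc3, Pacc1 and Pdlim3 lie above 0.

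Genes of the small proteoglycan, matrix, mesothelial and smooth muscle lists were 6 of the 16 that fell. Ogn, a small leucine-rich proteoglycan that binds collagen fibrils, had -6.59, -3.92 and -5.66 in the Sirt6 KO Rela het spleens, against -0.54 and -1.45 in the Sirt6 KO spleens. Its mean of -5.39 ± 0.52 was the lowest of the 29, and both of its probes were below 0 on every array. Hspb7, a small heat shock protein of heart and muscle, had -4.81, -2.67 and -5.85 in the Sirt6 KO Rela het spleens, against -0.15 and -0.13 in the Sirt6 KO spleens, with a mean of -4.44 ± 0.57. Igfbp6, which binds insulin-like growth factors, had -3.70, -2.59 and -3.73 in the Sirt6 KO Rela het spleens, against -0.31 and 0.02 in the Sirt6 KO spleens, with a mean of -3.34 ± 0.33. For these 3 genes the Sirt6 KO Rela het spleens lay well below the pool and the Sirt6 KO spleens closer to it. Lrrn4, a leucine-rich membrane protein of mesothelium, had -3.71, -2.38 and -4.29 in the Sirt6 KO Rela het spleens, against -0.60 and -0.05 in the Sirt6 KO spleens. Mgp, the matrix Gla protein that hinders calcification, had -3.50, -2.01 and -2.58 in the Sirt6 KO Rela het spleens, against -0.77 and -0.75 in the Sirt6 KO spleens. Eln, which encodes elastin, had -1.99, -2.70 and -2.15 in the Sirt6 KO Rela het spleens, against -0.44 and -1.10 in the Sirt6 KO spleens. Both matrix genes were below the pool in all 5 mutant spleens and lowest in the Sirt6 KO Rela het group.

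In 4 of the 16 genes that fell, both Sirt6 KO spleens lay above the pool. Fmo2, a flavin monooxygenase, had -4.21, -2.88 and -2.74 in the Sirt6 KO Rela het spleens, against 2.21 and 1.72 in the Sirt6 KO spleens, a difference of -5.24 ± 0.58 (adjusted p 0.204). Gpc3, a glypican that carries heparan sulfate at the cell surface, had -2.79, -2.60 and -2.84 in the Sirt6 KO Rela het spleens, against 1.26 and 0.72 in the Sirt6 KO spleens, a difference of -3.73 ± 0.42 (adjusted p 0.204). Pacc1, a proton-activated chloride channel, had -2.51, -2.20 and -2.50 in the Sirt6 KO Rela het spleens, against 0.21 and 0.48 in the Sirt6 KO spleens. Pdlim3, an actin-associated protein of muscle that is named because of this pattern after its values were seen, had -2.39, -1.84 and -2.47 in the Sirt6 KO Rela het spleens, against 0.31 and 0.11 in the Sirt6 KO spleens. The 2 probes of Fmo2 were -1.71 and -6.72 on Sirt6 KO Rela het 1, so its size on that array is uncertain, though both were below 0 on all 3 arrays. The 16 genes were picked for low values in the same 3 spleens, which by itself favours a place below the Sirt6 KO spleens. For 14 of the 16 genes all 3 Sirt6 KO Rela het spleens lay below both Sirt6 KO spleens, against 13.8% of all genes, which were not so picked. The exceptions were Epx, the eosinophil peroxidase, with -2.58, -3.04 and -3.07 in the Sirt6 KO Rela het spleens, against -2.35 and -3.88 in the Sirt6 KO spleens, and the kainate receptor subunit gene Grik1, with -4.91, -2.47 and -3.93 in the Sirt6 KO Rela het spleens, against -3.45 and -2.81 in the Sirt6 KO spleens. The other genes that fell were Nrep (-3.24), Ecrg4 (-3.36), Edaradd, an adaptor of the ectodysplasin receptor (-2.58), and Mcoln3, an endolysosomal cation channel (-2.40), each given as the mean of the 3 spleens.

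**Figure D2:**
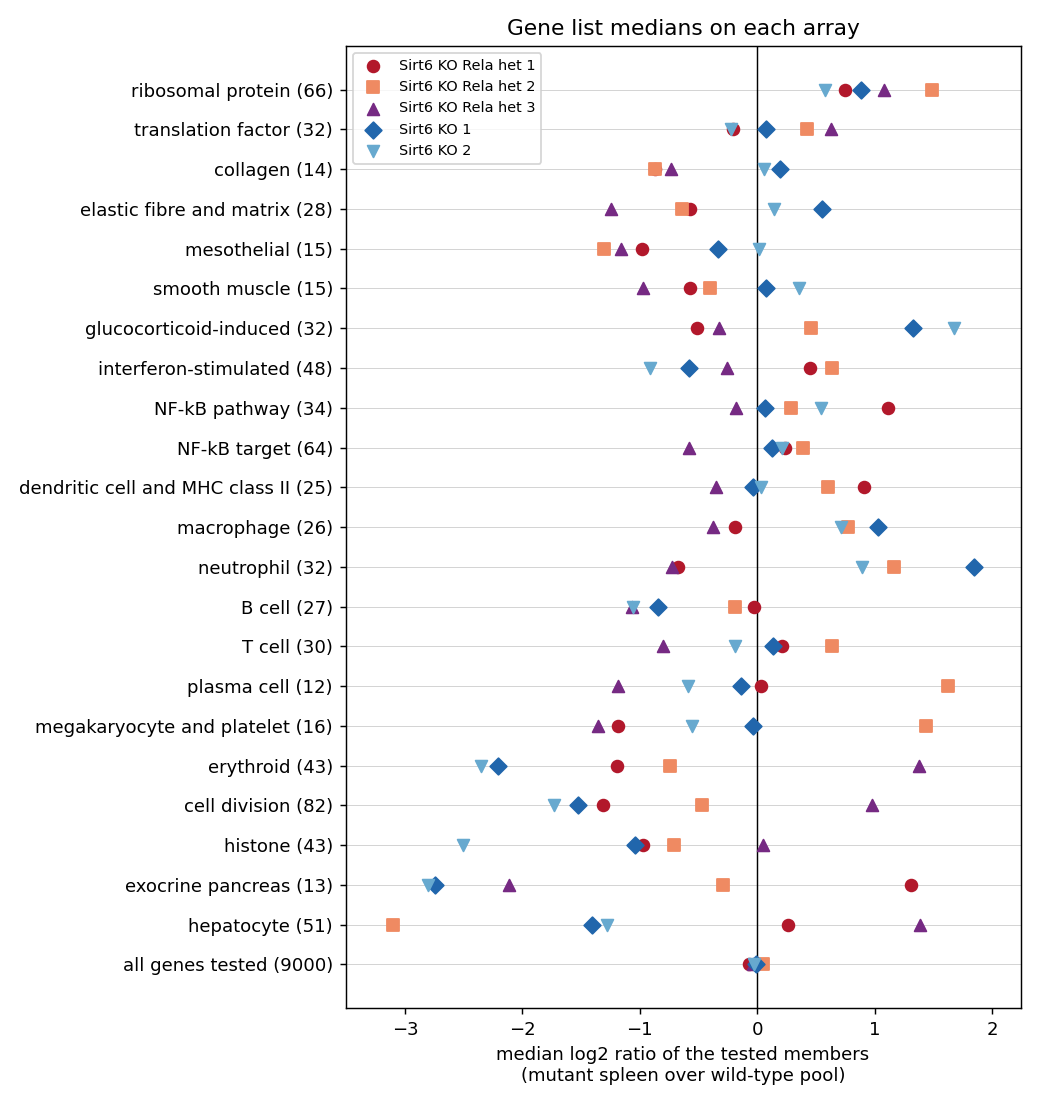
Median log2 ratio of the tested members of 22 gene lists and of all genes, 1 point per array, with the number of tested members in brackets. Ribosomal protein genes are above 0 and the collagen, elastic fibre, mesothelial and smooth muscle lists below 0 in all 3 Sirt6 KO Rela het spleens, while the erythroid, cell division, plasma cell, megakaryocyte, exocrine pancreas and hepatocyte medians spread over both sides. The collagen points of Sirt6 KO Rela het 1 and 2 coincide.

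The stromal lists were low together in the Sirt6 KO Rela het spleens. Of 14 tested collagen genes, 13 had a mean below 0 and 10 (71.4%) were below 0 in all 3 spleens, against 15.1% of all genes. The collagen median was -0.87, -0.87 and -0.74 in the Sirt6 KO Rela het spleens, against 0.20 and 0.06 in the Sirt6 KO spleens. None of the collagens was called, and 8 passed an unadjusted p of 0.05, all lower, against 8.00% of all genes that were lower at that threshold. Col5a2, a fibril-regulating chain, had -3.39, -1.61 and -1.86 in the Sirt6 KO Rela het spleens, against -0.12 and -0.04 in the Sirt6 KO spleens (mean -2.29 ± 0.40, adjusted p 0.0988). Col1a1, the main chain of type I collagen, had -3.24, -1.53 and -1.90 in the Sirt6 KO Rela het spleens, against -0.72 and -1.38 in the Sirt6 KO spleens (adjusted p 0.108). Its partner chain Col1a2 lay on both sides of the pool, with 0.82, -0.12 and -0.91, against 1.44 and 1.22 in the Sirt6 KO spleens. So did Col5a1, with -0.735, -0.77 and 1.15 in the 3 Sirt6 KO Rela het spleens. Col6a2, of microfibrillar collagen, had -3.33, -0.93 and -1.85 in the Sirt6 KO Rela het spleens, against 0.16 and -0.50 in the Sirt6 KO spleens. Col3a1, of the fibrils of soft tissue, has 1 probe measured on all arrays, which gave -1.53, -1.97 and -1.17 in the Sirt6 KO Rela het spleens, against -0.83 and -1.21 in the Sirt6 KO spleens. In bulk tissue, fewer cells of a type and less RNA per cell cannot be told apart, here and for every cell type list that follows.

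Of 28 elastic fibre and other matrix genes, 25 had a mean below 0, 16 (57.1%) were below 0 in all 3 Sirt6 KO Rela het spleens, and 2, Eln and Mgp, were called. The median was -0.58, -0.64 and -1.24 in the Sirt6 KO Rela het spleens, against 0.55 and 0.14 in the Sirt6 KO spleens. Ltbp2, which tethers to fibrillin microfibrils, had -1.36, -1.80 and -1.63 in the Sirt6 KO Rela het spleens, against 0.15 and -0.46 in the Sirt6 KO spleens, and was not called (adjusted p 0.0993). Fbln1, a fibulin, had averages of -2.63, -2.12 and -1.02 in the Sirt6 KO Rela het spleens, against 0.17 and -0.03 in the Sirt6 KO spleens, but over different probes. Its 1 probe measured on all arrays gave -0.62, -0.56 and -1.02 in the Sirt6 KO Rela het spleens, against 0.06 and 0.02 in the Sirt6 KO spleens. Vtn, which encodes vitronectin, a plasma protein made mainly in liver, stood apart with 0.55, -3.55 and 1.35 in the 3 spleens. Of the 11 small proteoglycan genes listed, 4 were tested, all with a mean below 0. Dcn, which encodes decorin, had -1.28, -0.35 and -2.62 in the Sirt6 KO Rela het spleens, against 0.26 and 0.05 in the Sirt6 KO spleens, and its probes differed, 1 of them lying at 0.69 on Sirt6 KO Rela het 1. An average can hold different probes on different arrays where a probe is blank. With only the probes measured on all 5 arrays, an alternative chosen after seeing the data, all 29 genes were called again among 30 of 8969.

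Of 15 mesothelial genes, 13 had a mean below 0, 7 (46.7%) were below 0 in all 3 Sirt6 KO Rela het spleens, and 2, Lrrn4 and Igfbp6, were called. The median was -0.98, -1.30 and -1.16 in the Sirt6 KO Rela het spleens, against -0.34 and 0.02 in the Sirt6 KO spleens. Upk3b, a uroplakin of the mesothelial surface, had -1.96, -2.31 and -1.40 in the Sirt6 KO Rela het spleens, against -1.27 and -0.97 in the Sirt6 KO spleens (adjusted p 0.0796). Wt1, the transcription factor of mesothelium, had 0.43, -0.33 and -1.19 in the Sirt6 KO Rela het spleens, against 2.32 and 3.69 in the Sirt6 KO spleens, and Slpi, a secreted protease inhibitor, had values on both sides of the pool with 2.11, 5.08 and -0.75 in the 3 spleens. Of 15 smooth muscle genes, 11 had a mean below 0 and 9 (60.0%) were below 0 in all 3 spleens. Their median was -0.57, -0.41 and -0.98 in the Sirt6 KO Rela het spleens, against 0.08 and 0.36 in the Sirt6 KO spleens. Besides Hspb7, Itga8, an integrin of contractile cells, had -2.79, -1.63 and -1.64 in the Sirt6 KO Rela het spleens, against 0.26 and -0.47 in the Sirt6 KO spleens, and Myh11, the smooth muscle myosin, had -1.46, -0.90 and -1.29 in the Sirt6 KO Rela het spleens, against 0.29 and 1.26 in the Sirt6 KO spleens. Desmin, Des, lay near the pool in all 3 (0.09, 0.18 and -0.12).

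Genes of the growth hormone and IGF axis were mixed. Of 22 tested, 6 (27.3%) were above 0 and 7 (31.8%) below 0 in all 3 Sirt6 KO Rela het spleens, against 16.5% and 15.1% of all genes. Igfbp6 was the 1 call. All 3 spleens lay below both Sirt6 KO spleens for 8 genes, against 13.8% of all genes, and above both for 1, against 14.4%. At limma's unadjusted p under 0.05 for the difference, 7 were lower, against 5.34% of all genes, and 1 higher, against 3.48%. Igfbp3, the main carrier of circulating IGF, had -1.50, -1.34 and -1.87 in the Sirt6 KO Rela het spleens, against 1.90 and 1.25 in the Sirt6 KO spleens, a difference of -3.15 ± 0.45 (adjusted p 0.204), but 1 of its 2 probes was at 0.22 on Sirt6 KO Rela het 1. Igf2bp3, an RNA-binding protein of foetal tissue, had -1.16, -1.57 and -2.79 in the Sirt6 KO Rela het spleens, against 0.70 and 0.30 in the Sirt6 KO spleens. Both lay below the pool in the 3 spleens and above it in the Sirt6 KO spleens. Socs3, a feedback inhibitor of cytokine receptors, had 2.03, 2.19 and 0.86 in the Sirt6 KO Rela het spleens, against 1.60 and 2.86 in the Sirt6 KO spleens, and so was above the pool in all 5. The list median was -0.19, with 0.01, -0.22 and -0.33 by spleen, against 0.68 and 1.28 in the Sirt6 KO spleens.

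Glucocorticoid-induced genes lay lower in the Sirt6 KO Rela het than in the Sirt6 KO spleens. Of 32 tested, 21 had all 3 Sirt6 KO Rela het spleens below both Sirt6 KO spleens, against 13.8% of all genes, and 18 passed an unadjusted p of 0.05 for the difference, all lower, against 5.34% of all genes. No gene of the list passed the adjusted test. The median was -0.51, 0.46 and -0.32 in the Sirt6 KO Rela het spleens, against 1.33 and 1.67 in the Sirt6 KO spleens. Cdkn1c, which encodes a CDK inhibitor, had -1.61, -1.29 and -2.35 in the Sirt6 KO Rela het spleens, against 1.74 and 1.75 in the Sirt6 KO spleens, a difference of -3.49 ± 0.48 (adjusted p 0.204). Klf15, a transcription factor of amino acid use in fasting, had -1.62, -0.75 and -0.97 in the Sirt6 KO Rela het spleens, against 2.07 and 2.07 in the Sirt6 KO spleens. Fam107a, a stress-induced actin-binding protein, had -1.80, -1.32 and -3.09 in the Sirt6 KO Rela het spleens, against 1.58 and 1.60 in the Sirt6 KO spleens. These 3 genes were below the pool in every Sirt6 KO Rela het spleen and above it in both Sirt6 KO spleens. Pdk4, the kinase that closes pyruvate dehydrogenase in fasting, had the same pattern with -3.56, -0.74 and -1.65 in the Sirt6 KO Rela het spleens, against 2.36 and 2.50 in the Sirt6 KO spleens (difference adjusted p 0.234). Against the pool itself the list was not low as a whole: 15 genes had a mean above 0 and 17 below 0, and the median of the group mean, -0.07, became 0.14, -0.31 and 0.05 without spleen 1, 2 or 3.

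**Figure D3:**
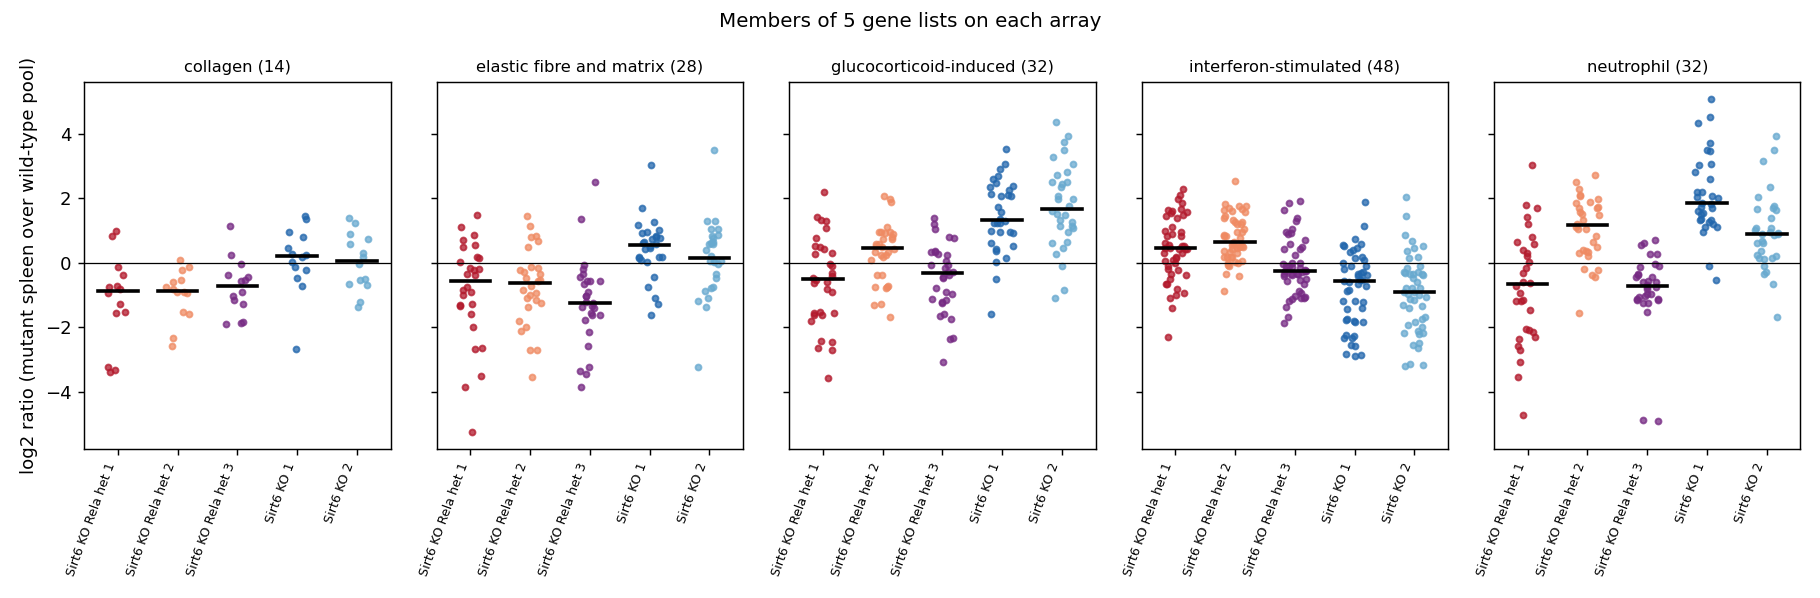
Log2 ratio over the wild-type pool of each tested member of 5 lists, 1 point per gene, with a column per array and a bar at the median. The 3 Sirt6 KO Rela het columns lie below the Sirt6 KO columns in the collagen, matrix and glucocorticoid-induced lists and above them in the interferon-stimulated list, and in the neutrophil list Sirt6 KO Rela het 2 lies with the Sirt6 KO spleens.

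Interferon-stimulated genes were higher in the Sirt6 KO Rela het than in the Sirt6 KO spleens. Of 48 tested, 25 had all 3 Sirt6 KO Rela het spleens above both Sirt6 KO spleens, against 14.4% of all genes, and 17 passed an unadjusted p of 0.05 for the difference, all higher, against 3.48% of all genes. The median was 0.45, 0.63 and -0.26 in the Sirt6 KO Rela het spleens, against -0.58 and -0.91 in the Sirt6 KO spleens. Oas1a, an antiviral oligoadenylate synthetase, had 1.67, 1.82 and 0.88 in the Sirt6 KO Rela het spleens, against -1.85 and -1.92 in the Sirt6 KO spleens, a difference of 3.34 ± 0.47 (adjusted p 0.204). Ifit1, which binds viral RNA, had 2.30, 0.50 and 1.39 in the Sirt6 KO Rela het spleens, against -2.35 and -2.11 in the Sirt6 KO spleens. Ifi27l2a had 1.98, 1.20 and 0.23 in the Sirt6 KO Rela het spleens, against -2.33 and -2.18 in the Sirt6 KO spleens. All 3 genes were above the pool in each Sirt6 KO Rela het spleen and below it in both Sirt6 KO spleens, and none passed the adjusted test in either comparison. Against the pool, 35 of 48 had a mean above 0 but 8 (16.7%) were above 0 in all 3 spleens, close to the 16.5% of all genes, and 6 passed an unadjusted p of 0.05, all higher, against 5.06% of all genes. Zbp1, a sensor of Z-form nucleic acid, differed among the 3 with -0.65, 1.67 and -1.68.

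The NF-kB pathway list, which holds subunits, inhibitors and kinases, had 27 of 34 genes with a mean above 0 and 13 (38.2%) above 0 in all 3 Sirt6 KO Rela het spleens. None was called. At an unadjusted p under 0.05, 4 were higher, against 5.06% of all genes, and 2 lower, against 8.00%. By spleen the median was 1.12, 0.29 and -0.18, against 0.07 and 0.54 in the Sirt6 KO spleens, so Sirt6 KO Rela het 1 carried most of it, and the median of the group mean was 0.35 with all 3 and 0.12 without that spleen. Traf1, an adaptor of TNF receptors and itself induced by NF-kB, had 3.08, 1.32 and 0.45 in the Sirt6 KO Rela het spleens, against -0.41 and 0.27 in the Sirt6 KO spleens (adjusted p 0.341). Rel, the c-Rel subunit, had -0.74, -0.34 and -3.73 in the Sirt6 KO Rela het spleens, against -1.13 and -1.27 in the Sirt6 KO spleens, and Nfkbie, an inhibitor that holds dimers in the cytoplasm, had -0.80, -0.20 and -1.68 in the Sirt6 KO Rela het spleens, against -0.79 and -1.18 in the Sirt6 KO spleens. Both were below the pool in all 5 spleens.

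The 64 tested NF-kB target genes were balanced around the pool. Of these, 33 had a mean above 0 and 31 below 0, with 12 (18.8%) above 0 and 11 (17.2%) below 0 in all 3 spleens, close to all genes. Mmp3 was the 1 call. The median of the group mean was 0.05, and -0.05, -0.15 and 0.47 without spleen 1, 2 or 3. By spleen it was 0.24, 0.39 and -0.58 in the Sirt6 KO Rela het spleens, against 0.13 and 0.21 in the Sirt6 KO spleens. H2-K1, the class I histocompatibility heavy chain, had 3.64, 3.44 and 1.01 in the Sirt6 KO Rela het spleens, against 1.52 and 1.88 in the Sirt6 KO spleens (adjusted p 0.148). Cxcl13, the stromal chemokine that draws B cells into follicles, had -1.13, -0.91 and -1.38 in the Sirt6 KO Rela het spleens, against 0.47 and 0.57 in the Sirt6 KO spleens, and Madcam1, an adhesion molecule of the marginal sinus, had -0.86, -1.34 and -1.92 in the Sirt6 KO Rela het spleens, against -1.96 and -2.52 in the Sirt6 KO spleens. Neither was called (adjusted p 0.205 and 0.205). Ccl4, a chemokine of activated myeloid and T cells, shows how far 1 spleen could stand apart, with 2.91, 3.22 and -1.03.

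Neutrophil genes differed between the 3 spleens. The median was -0.67, 1.16 and -0.73 in the Sirt6 KO Rela het spleens, against 1.84 and 0.89 in the Sirt6 KO spleens, so 2 spleens were below the pool and Sirt6 KO Rela het 2 lay with the Sirt6 KO group. The median of the group mean was -0.07, and without spleen 1, 2 or 3 it was 0.24, -0.81 and 0.31. Of 32 genes, 12 had all 3 spleens below both Sirt6 KO spleens, against 13.8% of all genes, and 0 above both, against 14.4%. Stfa3, a cysteine protease inhibitor of the stefin family, had -4.72, -1.55 and -4.91 in the Sirt6 KO Rela het spleens, against 4.35 and 3.17 in the Sirt6 KO spleens, a difference of -7.48 ± 1.07 (adjusted p 0.204). Its relative Stfa2l1 had -3.54, -0.46 and -4.89 in the Sirt6 KO Rela het spleens, against 5.08 and 3.92 in the Sirt6 KO spleens. The stefin genes are near-identical copies, and a probe may read several of them. Of the 5 neutrophil markers, Camp had 0.20, -0.19 and -0.70 in the Sirt6 KO Rela het spleens, against 3.49 and 2.35 in the Sirt6 KO spleens, and S100a9 had 0.63, 1.85 and 0.55 in the Sirt6 KO Rela het spleens, against 3.72 and 2.04 in the Sirt6 KO spleens. Ltf, which encodes lactoferrin, had 0.29, -0.22 and -0.59 in the Sirt6 KO Rela het spleens, against 2.03 and 0.88 in the Sirt6 KO spleens. For these 3 markers the Sirt6 KO Rela het spleens lay below both Sirt6 KO spleens. Ngp, a granule protein, had -3.09, -0.39 and -1.51 in the Sirt6 KO Rela het spleens, against 2.21 and -0.36 in the Sirt6 KO spleens, where Sirt6 KO Rela het 2 and Sirt6 KO 2 nearly met. S100a8, the partner of S100a9, had -1.48, 1.69 and -0.13 in the Sirt6 KO Rela het spleens, against 4.52 and 1.39 in the Sirt6 KO spleens, and overlapped. Csf3r, the receptor for the granulocyte growth factor, had 3.02, 2.11 and 0.71 in the Sirt6 KO Rela het spleens, against 1.59 and 0.90 in the Sirt6 KO spleens, above the pool in all 5.

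Among 26 macrophage genes the median was -0.18, 0.78 and -0.38 in the Sirt6 KO Rela het spleens, against 1.03 and 0.71 in the Sirt6 KO spleens, and 7 (26.9%) were above 0 in all 3. For the group mean it was 0.16, and without spleen 1, 2 or 3 it was 0.28, -0.28 and 0.43. Vcam1, an adhesion molecule of red pulp macrophages, had 1.53, 1.36 and 0.70 in the Sirt6 KO Rela het spleens, against 2.71 and 2.74 in the Sirt6 KO spleens, and Ctsb, a lysosomal protease, had 1.05, 1.68 and 1.00 in the Sirt6 KO Rela het spleens, against 0.99 and 0.97 in the Sirt6 KO spleens. Both were above the pool in all 5 spleens without a call. Slc40a1, the iron exporter, was also above it in all 5, with 1.23, 0.71 and 0.58 in the Sirt6 KO Rela het spleens, against 2.20 and 1.71 in the Sirt6 KO spleens. Spic, the transcription factor of red pulp macrophages, lay the other way, with -1.23, -0.12 and -1.47 in the Sirt6 KO Rela het spleens, against 0.61 and 0.45 in the Sirt6 KO spleens. The marker Adgre1 was also mostly below the pool, with -4.07, 0.26 and -2.26, against -0.21 and -1.66 in the Sirt6 KO spleens. Its 2 probes differed, with -0.05 and -8.10 on Sirt6 KO Rela het 1. The marker Hmox1 was mixed, with 0.84, 0.74 and -0.53, against 1.45 and 0.68 in the Sirt6 KO spleens. Of 25 dendritic cell and class II genes, 17 had a mean above 0, and the median was 0.91, 0.60 and -0.35 in the Sirt6 KO Rela het spleens, against -0.03 and 0.03 in the Sirt6 KO spleens. H2-Aa, a class II alpha chain, had 1.61, 2.74 and 0.37 in the Sirt6 KO Rela het spleens, against 1.33 and 1.05 in the Sirt6 KO spleens. Siglech, a receptor of plasmacytoid dendritic cells, had -1.59, -3.03 and -1.84 in the Sirt6 KO Rela het spleens, against -1.53 and -1.99 in the Sirt6 KO spleens (adjusted p 0.0884), and was thus below the pool in all 5.

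Of 27 B cell genes, 18 had a mean below 0 and 11 (40.7%) were below 0 in all 3 Sirt6 KO Rela het spleens, against 15.1% of all genes, and 8 passed an unadjusted p of 0.05, all lower, against 8.00% of all genes, with 0 called. The median was -0.03, -0.19 and -1.06 in the Sirt6 KO Rela het spleens, against -0.84 and -1.06 in the Sirt6 KO spleens. Vpreb3, a partner of the surrogate light chain of developing B cells, had -2.10, -1.44 and -2.20 in the Sirt6 KO Rela het spleens, against -2.17 and -2.44 in the Sirt6 KO spleens (adjusted p 0.0766), and Fcrla had -2.07, -0.86 and -1.96 in the Sirt6 KO Rela het spleens, against -1.55 and -2.29 in the Sirt6 KO spleens. Ms4a1, which encodes CD20, had -0.49, -0.88 and -1.44 in the Sirt6 KO Rela het spleens, against -0.80 and -1.08 in the Sirt6 KO spleens. Other B cell genes lay on both sides of the pool in the 3 spleens. The marker Cr2 had 0.46, -0.14 and -0.99. The 2 genes of widest spread were Cd24a, with -1.43, 0.03 and 3.09, and Pou2f2, with 2.17, -0.13 and -0.52. T cell genes had medians of 0.21, 0.64 and -0.80 in the Sirt6 KO Rela het spleens, against 0.13 and -0.19 in the Sirt6 KO spleens. Natural killer cell genes had medians of 0.23, 0.48 and -0.96 in the Sirt6 KO Rela het spleens, against -0.75 and -1.14 in the Sirt6 KO spleens. Sirt6 KO Rela het 3 was below the pool for both lists, and without spleen 1, 2 or 3 the median of the group mean was -0.22, -0.31 and 0.35 for T cells and -0.19, -0.31 and 0.37 for natural killer cells. Gata3, a T cell transcription factor, had 3.63, 1.39 and 0.02 in the 3 spleens, and Prf1, the pore-forming protein of cytotoxic cells, had 2.10, 1.93 and 0.19. Each was the 1 member of its list above 0 in all 3 spleens, against 16.5% of all genes. Below 0 in all 3 were 3 of 30 T cell genes and 3 of 17 natural killer cell genes, against 15.1% of all genes. They included Cd7 of the T cell list, with -0.95, -0.30 and -0.66. From the natural killer cell list they included Xcl1, with -0.17, -0.54 and -2.75, and Klra3, with -0.33, -0.16 and -1.92. Plasma cell genes ranged further, with medians of 0.04, 1.62 and -1.19 in the Sirt6 KO Rela het spleens, against -0.14 and -0.59 in the Sirt6 KO spleens. The median of their group mean was 0.19, and without spleen 1, 2 or 3 it was 0.23, -0.62 and 0.82. Jchain, which joins polymeric antibodies, had 2.83, 4.02 and -1.16 in the Sirt6 KO Rela het spleens, against 0.25 and -0.09 in the Sirt6 KO spleens. Besides Epx, the eosinophil granule gene Prg2 was low in all 5 spleens, with -1.66, -2.05 and -2.17 in the Sirt6 KO Rela het spleens, against -1.54 and -2.69 in the Sirt6 KO spleens (adjusted p 0.0853).

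Red cell and proliferation genes differed in direction among the 3 spleens. Of 43 erythroid genes, 41 were below 0 on Sirt6 KO Rela het 1 and 40 on Sirt6 KO Rela het 2, while 42 were above 0 on Sirt6 KO Rela het 3. The medians were -1.19, -0.74 and 1.38, against -2.21 and -2.35 in the Sirt6 KO spleens. The median of the group mean was -0.12, and without spleen 1, 2 or 3 it was 0.34, 0.20 and -0.84, so its sign rests on which spleens are averaged. Tfrc, the transferrin receptor, had -0.51, -0.32 and 4.35 in the Sirt6 KO Rela het spleens, against -1.77 and -1.21 in the Sirt6 KO spleens. Slc4a1, the anion exchanger of the red cell membrane, had 0.75, -0.35 and 3.47 in the Sirt6 KO Rela het spleens, against -3.56 and -3.06 in the Sirt6 KO spleens, and Epb42, a membrane skeleton protein, had -2.09, -1.42 and 2.09 in the Sirt6 KO Rela het spleens, against -5.38 and -5.22 in the Sirt6 KO spleens. For these genes Sirt6 KO Rela het 3 was above the pool and above every other spleen. The marker Klf1 had -1.01, -0.59 and 1.26, above both Sirt6 KO spleens at -2.69 and -2.45. Other genes overlapped with the Sirt6 KO spleens. The marker Hba-a1 had -2.07, -0.305 and 1.77, against -0.74 and -2.26, and Alas2 had -0.156, -0.075 and 2.94, against 0.008 and -1.35. Hbq1a was below the pool in all 5, with -3.04, -2.60 and -0.51, against -2.21 and -3.20. In 34 of the 43 genes all 3 Sirt6 KO Rela het spleens lay above both Sirt6 KO spleens, against 14.4% of all genes, and 25 passed an unadjusted p of 0.05 for the difference, all higher, against 3.48% of all genes. None passed the adjusted test.

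Cell division genes followed the same order of spleens. Of 82, 76 were below 0 on Sirt6 KO Rela het 1 and 80 on Sirt6 KO Rela het 2, and 76 were above 0 on Sirt6 KO Rela het 3, with medians of -1.31, -0.47 and 0.98, against -1.53 and -1.73 in the Sirt6 KO spleens. The median of the group mean was -0.24, and without spleen 1, 2 or 3 it was 0.22, -0.10 and -0.91. Mybl2, a transcription factor of cycling cells, had -6.29, -0.98 and 0.42 in the Sirt6 KO Rela het spleens, against -2.29 and -2.80 in the Sirt6 KO spleens. Cdc6, which licenses replication origins, had -2.70, -0.82 and -0.51 in the Sirt6 KO Rela het spleens, against -2.61 and -2.92 in the Sirt6 KO spleens. Histone genes were less spread, with medians of -0.97, -0.71 and 0.05 in the Sirt6 KO Rela het spleens, against -1.04 and -2.50 in the Sirt6 KO spleens, and 16 of 43 (37.2%) below 0 in all 3. The replication-dependent histone genes are near-identical, and several probes may read the same messages.

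**Figure D4:**
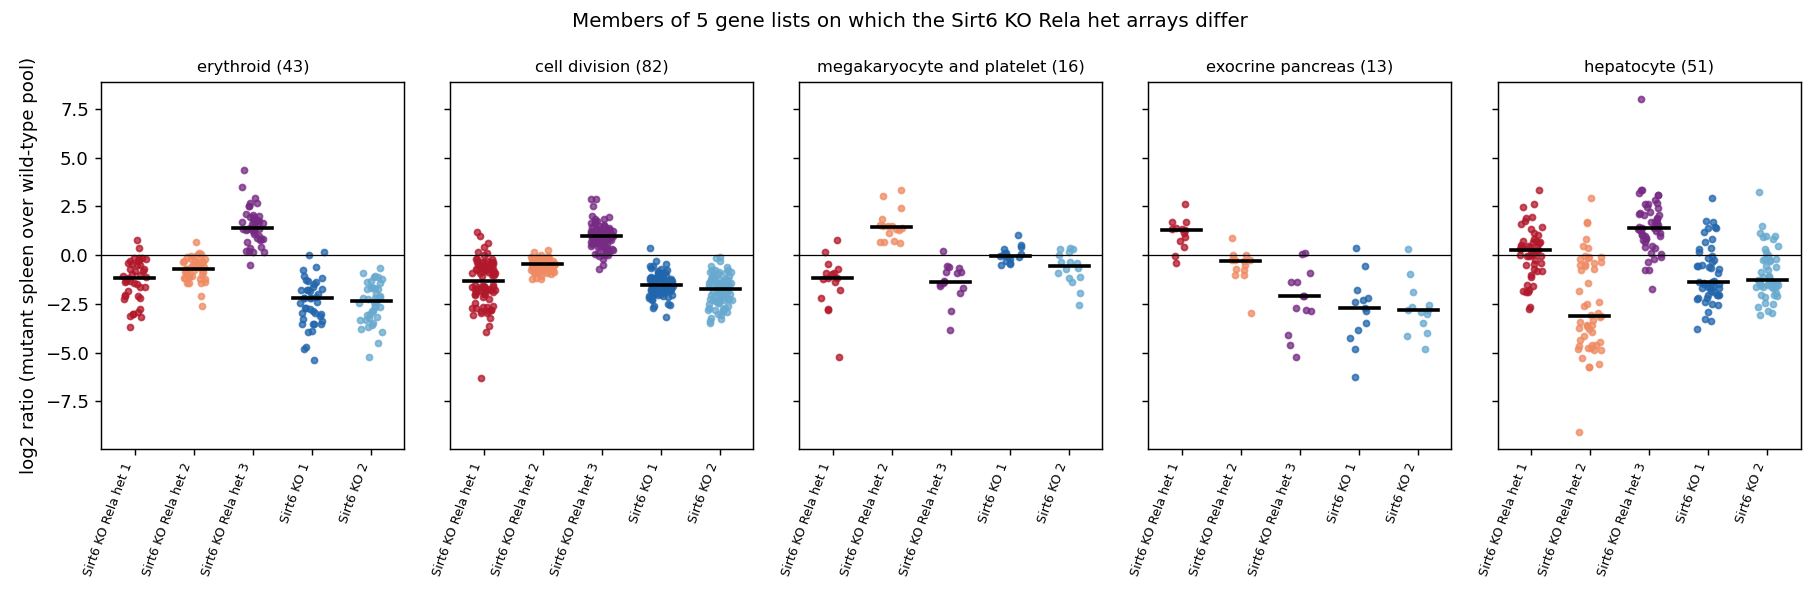
Log2 ratio over the wild-type pool of each tested member of 5 lists, 1 point per gene, with a column per array and a bar at the median. Sirt6 KO Rela het 3 is high in the erythroid and cell division lists, Sirt6 KO Rela het 2 is high in the megakaryocyte list and low in the hepatocyte list, and Sirt6 KO Rela het 1 is high in the exocrine pancreas list.

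Megakaryocyte and platelet genes, exocrine pancreas genes and hepatocyte genes also differed in direction among the 3 spleens. All 16 megakaryocyte and platelet genes were above 0 on Sirt6 KO Rela het 2, with medians of -1.18, 1.44 and -1.36 in the Sirt6 KO Rela het spleens, against -0.04 and -0.55 in the Sirt6 KO spleens. Pf4, a platelet chemokine, had -1.20, 3.32 and -1.40 in the Sirt6 KO Rela het spleens, against 0.05 and -0.43 in the Sirt6 KO spleens. Thbs1, a platelet and matrix glycoprotein, had -5.25, 0.69 and -3.84 in the Sirt6 KO Rela het spleens, against 0.53 and -1.37 in the Sirt6 KO spleens. Averaged over the group the list median was -0.39, and without spleen 1, 2 or 3 it was 0.05, -1.24 and 0.09. The pancreas lies against the spleen, and its exocrine genes had medians of 1.31, -0.29 and -2.12 over 13 genes in the Sirt6 KO Rela het spleens, against -2.74 and -2.81 in the Sirt6 KO spleens. Pnliprp1, a pancreatic lipase relative, had 1.32, -1.02 and -5.21 in the Sirt6 KO Rela het spleens, against -4.84 and -4.82 in the Sirt6 KO spleens. Not all exocrine genes followed it. The marker Cela1 was above the pool in all 5 spleens, with 1.68, 0.89 and 0.11, against 0.358 and 0.285 in the Sirt6 KO spleens. The marker Ctrb1 had 1.14, 0.003 and 0.03, against -1.80 and -2.57 in the Sirt6 KO spleens. For the group mean the exocrine list median was -0.43, and without spleen 1, 2 or 3 it was -1.42, -0.55 and 0.23. The 51 tested hepatocyte genes, a list drawn up after the values were seen, had a median of -0.53, with 0.27, -3.11 and 1.38 in the Sirt6 KO Rela het spleens, against -1.41 and -1.28 in the Sirt6 KO spleens, and leaving out spleen 1, 2 or 3 gave -0.66, 0.81 and -1.54. Fgg, a fibrinogen chain made in liver, had 0.40, -9.08 and 2.83 in the Sirt6 KO Rela het spleens, against -2.19 and -1.53 in the Sirt6 KO spleens. On Sirt6 KO Rela het 2, 45 of the 51 genes were below 0, and on Sirt6 KO Rela het 3, 45 were above 0. The share of pancreas or liver RNA in any sample or in the pool, and its part in the other results, was not tested.

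Some of the genes at the ends of each array were far from the pool on 1 spleen and others on several. On Sirt6 KO Rela het 1 the highest genes were St18, Tnn, Slfn4, Apol10b and Fbxw13, of which St18 was also among the 5 highest on Sirt6 KO Rela het 3 and Tnn on Sirt6 KO Rela het 2. The lowest there was Lactb2 with -7.75, -0.51 and -0.14 in the 3 spleens. On Sirt6 KO Rela het 2 the highest gene was Slpi and the lowest Fgg, followed by Tnfrsf19, Cyp2c50, Rdh7 and Cyp2a12. On Sirt6 KO Rela het 3 the highest was Aox3, a liver aldehyde oxidase, with 2.60, -0.71 and 8.00, and the lowest Snai2, a repressor of epithelial genes, with -0.27, -0.81 and -7.29. Slfn4, a myeloid interferon-responsive gene, was high in every spleen, with 5.48, 3.50 and 2.23 in the Sirt6 KO Rela het spleens, against 2.83 and 3.18 in the Sirt6 KO spleens (adjusted p 0.0796).

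Chaperone lists were somewhat above the pool. Of 36 cytosolic chaperone genes, 24 had a mean above 0 and 11 (30.6%) were above 0 in all 3 spleens, with medians of 0.57, 0.01 and 0.50 in the Sirt6 KO Rela het spleens, against -0.45 and -0.30 in the Sirt6 KO spleens. Hspa8 was called higher and Hspb7 lower. Hsph1, a nucleotide exchange factor of Hsp70, had 4.79, -0.39 and 1.71 in the Sirt6 KO Rela het spleens, against -1.79 and -1.09 in the Sirt6 KO spleens, and Cct5, of the cytosolic chaperonin, had 1.34, 0.51 and 0.81 in the Sirt6 KO Rela het spleens, against 0.07 and 0.10 in the Sirt6 KO spleens. Of 30 endoplasmic reticulum folding genes, 22 had a mean above 0 and 9 (30.0%) were above 0 in all 3, with medians of 0.16, 0.85 and 0.17 in the Sirt6 KO Rela het spleens, against -0.04 and -0.27 in the Sirt6 KO spleens. Hsp90b1, the reticulum's Hsp90, had 2.77, 2.19 and 0.90 in the Sirt6 KO Rela het spleens, against -0.13 and 0.35 in the Sirt6 KO spleens, and Hspa5, which encodes BiP, had 0.69, 1.62 and 1.21 in the Sirt6 KO Rela het spleens, against 0.10 and 0.04 in the Sirt6 KO spleens. Both were above the pool in the 3 spleens and near it in the Sirt6 KO spleens, with adjusted p of 0.159 and 0.232 against the pool.

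Metabolic lists were near the pool on average, and the sign of several depended on the spleens averaged. Without spleen 1, 2 or 3 the median of the group mean was 0.33, -0.14 and -0.16 for oxidative phosphorylation, 0.18, -0.30 and -0.44 for the proteasome and 0.02, -0.61 and -0.21 for fatty acid oxidation. Oxidative phosphorylation genes had a median of 0.02 over 67 genes, with -0.55, 0.28 and 0.44 by spleen, and 15 (22.4%) were above 0 in all 3. Atp5a1, the alpha subunit of ATP synthase, had 1.22, 1.65 and 1.55 in the Sirt6 KO Rela het spleens, against 1.10 and 0.34 in the Sirt6 KO spleens (adjusted p 0.144). Proteasome genes had a median of -0.16 over 36 genes and glycolysis genes of 0.04 over 26. Ldhb, a lactate dehydrogenase subunit, had -2.51, -0.69 and -2.68 in the Sirt6 KO Rela het spleens, against 0.51 and -0.32 in the Sirt6 KO spleens. Fatty acid oxidation genes had a median of -0.29 over 23 genes, and cholesterol and fatty acid synthesis genes of -0.05 over 26. Among 32 antioxidant genes, Txn1, the cytosolic thioredoxin, had -3.97, -2.61 and -1.89 in the Sirt6 KO Rela het spleens, against -3.44 and -3.64 in the Sirt6 KO spleens (adjusted p 0.0766), and so was far below the pool in all 5. Adipoq, the adipocyte hormone adiponectin, was likewise low in all 5, with -1.83, -3.96 and -4.13 in the Sirt6 KO Rela het spleens, against -3.72 and -3.21 in the Sirt6 KO spleens (adjusted p 0.0766). It did not stand for the adipocyte list, where 6 of 15 genes had a mean above 0 and 9 below 0. The other adipocyte marker measured, Fabp4, had 1.77, 0.71 and -0.62 in the Sirt6 KO Rela het spleens, against 1.013 and 1.695 in the Sirt6 KO spleens.

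The remaining lists gave 0 calls each in limma's test. At an unadjusted p under 0.05 against the pool, 8 of 56 DNA repair genes were lower, against 8.00% of all genes, and 0 higher, and each other list had at most 4 such genes. For the difference from Sirt6 KO, 7 immediate early and 5 clock genes were lower at that threshold, against 5.34% of all genes. Among these, the sign of the median held without spleen 1, 2 or 3 for the adipocyte list alone. Medians of the mean were -0.14 over 56 DNA repair genes, -0.01 over 22 p53 and CDK inhibitor genes, -0.06 over 17 BCL2 family genes, 0.14 over 17 clock genes, 0.03 over 30 immediate early genes, 0.10 over 28 endothelial genes, -0.09 over 15 adipocyte genes and -0.17 over 4 sirtuin genes. Xrcc6, of the Ku complex in DNA end joining, had -1.95, -0.87 and -1.11 in the Sirt6 KO Rela het spleens, against -1.63 and -2.07 in the Sirt6 KO spleens. Fos had 3.74, 2.42 and -1.54 in the Sirt6 KO Rela het spleens, against 3.95 and 4.47 in the Sirt6 KO spleens, with Sirt6 KO Rela het 3 alone below the pool. The sirtuins Sirt1, Sirt2, Sirt3 and Sirt5 had means of -0.04, -0.20, -0.15 and -0.37, with adjusted p between 0.627 and 0.968.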

How the data were processed

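Spleen RNA of 3 Sirt6 KO Rela het and 2 Sirt6 KO mice was measured on 2-colour arrays of 38784 spots against a wild-type spleen pool. Per the labels' protocols, the mutant RNA was extracted with TRIzol, and the mutant sample was labelled with Cy5 and the pool with Cy3 on all 5 arrays, with no dye swap. The deposited values were taken to be log2 ratios, Cy5 over Cy3: base 2 was inferred from their range and the direction from the dyes. Base, direction, normalization and spot filter were each not given in the sources used here. Medians of the deposited values were 0.004, -0.039 and -0.014 on the 3 Sirt6 KO Rela het arrays and 0.004 and -0.006 on the 2 Sirt6 KO arrays. A value was given for 19768, 22871 and 21838 spots on the 3 Sirt6 KO Rela het arrays and 22274 and 22851 on the Sirt6 KO arrays. These arrays give no read depth, and their small number limits the precision. Whether a blank or a low ratio came from a dim spot cannot be seen, since intensities were not used here.

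Each array was centred on its median. The platform annotation, which can be old, gave 1 gene for 22204 probes, several for 0 and none for 16580. Probes of a gene were averaged, and 4955 of 14654 genes had several; a blank probe was left out of that array's average. Python 3.11.15 with pandas 2.3.3 prepared the table of 9000 genes measured on all 5 arrays. limma 3.58.1 in R 4.3.3 (lmFit, eBayes) fitted a mean per group on all 5 arrays, with 3 residual and 3.63 prior degrees of freedom. The Sirt6 KO Rela het mean was tested against 0, and against the Sirt6 KO mean, two-sided, with Benjamini-Hochberg adjustment over all 9000 genes and a threshold of 0.05. Errors are limma's moderated SE. The fit was tested on simulated data with known changes.

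The 44 gene lists hold 1689 genes, of which 1457 are on the array and 1261 were tested. The members and lists were chosen with earlier results of these data known, and the hepatocyte list was added after values were seen, so no list was tested as a set. Genes named are Sirt6, Rela, the 13 genes called higher, the 14 lowest called, up to 4 per list by the size of limma's t and up to 2 by their spread, the 5 highest and 5 lowest per array, and marker genes. Des was named as a marker of smooth muscle and Wt1 of mesothelium. Sequences are RefSeq's, on GRCm38.p6. Alternatives changed the centring, scaling, genes tested, probes, prior, replicate block and arrays.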

Additional observations from a re-analysis of the deposited data

Results flagged for a closer look

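Some results lay on opposite sides of the pool in all 3 Sirt6 KO Rela het and both Sirt6 KO spleens. For the lists this difference between the groups was not tested. The median of the Sirt6 KO Rela het mean was -0.70 for collagens, -0.69 for elastic fibre and matrix genes, -0.86 for the 4 small proteoglycan genes and -0.64 for smooth muscle genes, while both Sirt6 KO medians were above 0. It was 0.20 for cytosolic chaperones and 0.42 for endoplasmic reticulum folding genes, while both Sirt6 KO medians were below 0. Some single-array medians were so near 0 that their side means little. Cytosolic chaperones had 0.01 on Sirt6 KO Rela het 2, with 18 genes above 0 and 18 below. Endoplasmic reticulum folding genes had -0.04 on Sirt6 KO 1, and collagens 0.06 on Sirt6 KO 2. Among the called genes, Fmo2 (-3.28), Gpc3 (-2.74), Pacc1 (-2.40) and Pdlim3 (-2.23) were below the pool in the Sirt6 KO Rela het spleens and above it in the Sirt6 KO spleens. Their differences between the groups in limma's fit over all genes were -5.24 ± 0.58, -3.73 ± 0.42, -2.75 ± 0.41 and -2.44 ± 0.43 (moderated SE), with adjusted p of 0.204, 0.204, 0.204 and 0.22, so that none passed the threshold. No group had the 4 samples needed to look for a sample far from the others.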

How the results depend on the processing

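The count of 29 genes called against the pool depended on the processing, and its cause was not tested in any setting. It was 5 with values as deposited, 53 after quantile normalization and 301 without the least variable 25% of genes. It was 0 with arrays scaled to the same median absolute deviation, with genes measured on at least 2 arrays of each group, with the 3 Sirt6 KO Rela het arrays alone, with the robust prior and with each probe on its own. In those 5 settings limma gave 1322, 1267, 763, 1148 and 1761 features at an unadjusted p under 0.05. Leaving out 1 array gave 0 to 3 calls, with 685 to 1616 genes at that unadjusted p. All 29 genes kept their direction in each setting that measured them. This says little, since all 3 Sirt6 KO Rela het values of each gene lay on 1 side of 0. With the replicate number as a block, 215 genes were called against the pool and 42 for the difference from Sirt6 KO. That difference had 0 calls in every other fit run for it with at least 2 arrays in each group. The numbers share only a number: the deviations of same-numbered arrays correlated at -0.41 and -0.40, and the labels name no shared litter or day. Of the 44 list medians of the group mean, 19 kept their sign without spleen 1, 2 or 3 and 25 did not; the ribosomal, collagen, matrix, mesothelial, smooth muscle and B cell lists kept it. Leaving out members whose probes lay on both sides of 0, an alternative chosen after seeing the data, moved the translation factor median to 0.64, against 0.17. With only probes measured on all 5 arrays, also chosen after seeing the data, 30 genes were called, the 29 among them, and the median of the dendritic cell and class II list was 0.27, against 0.56. With 3 spleens, 1 pool, no dye swap and no intensities, dim spots and dye bias could not be assessed.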

Other observations

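Probes without a gene name behaved much like the named ones. Of 5206 unnamed probes with a value on all 5 arrays, 0 were called in limma's probe-level fit and 783 had an unadjusted p under 0.05, against 0 and 1604 of the 12538 named probes.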
